A study of Mus musculus with 15 samples.

Results

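Titin (Ttn), nebulin (Neb) and 7 protein genes of the Z-disc, Actn2, Actn3, Tcap, Ldb3, Myoz1, Myoz2 and Myot, were followed through the reprogramming of mouse embryonic fibroblasts (MEFs) into skeletal muscle progenitors. The 9 genes were taken by symbol from the 35675 genes that the deposited transcript tables covered. Poly-A RNA was sequenced from 15 libraries, made from 3 primary MEF lines in each of 5 conditions. Each line came from a separate embryo of the genotype Tg:Pax7-nGFP/C57BL6;DBA2, in which a nuclear green fluorescent protein reports the muscle stem cell gene Pax7, and the same 3 lines recur in every condition, so that n = 3 stands for lines.

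The first condition, called MEFs, was the untreated fibroblasts in the induced myogenic progenitor medium without B18R, an interferon-binding protein that dampens the response to foreign RNA. The other 4 conditions all received 4 transfections of synthetic MyoD mRNA, in that medium with B18R, and were collected on day 10. +MyoD received nothing more. +MyoD+F/R/C also received forskolin (F, which raises cyclic AMP), RepSox (R, an inhibitor of the TGF-β receptor kinase) and CHIR99210 (C, an inhibitor of GSK3). +MyoD+F/R/C+SP added the JNK inhibitor SP600125 to these, and +MyoD+F/R/C+CP added the JAK inhibitor CP690550 instead. B18R therefore separates the MEFs from every transfected condition along with the mRNA, and their parts cannot be told apart in a comparison with MEFs. The labels place the MEFs at day 10 as well, while the names of their deposited tables read day 0, so their time in culture is uncertain. The +MyoD+F/R/C libraries are shared by 4 of the 6 comparisons below, and the +MyoD and MEFs libraries by 2 each.

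In striated muscle the Z-disc is the plate at the end of each sarcomere in which thin filaments of neighbouring sarcomeres are anchored and cross-linked by α-actinin. Titin spans from the Z-disc to the middle of the sarcomere and acts as its molecular spring, and nebulin runs along the thin filament of skeletal muscle. Telethonin (Tcap) caps the titin N-terminus at the Z-disc, while ZASP (Ldb3), the myozenins (Myoz1 and Myoz2) and myotilin (Myot) bind α-actinin and hold the lattice together.

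The libraries held between 29393872 and 41885769 estimated reads, with a median of 38458894. Myod1 read as 0.113 to 0.556 CPM (reads scaled to the library total) in MEFs and as 787 to 3845 CPM in the 12 transfected libraries, so no library went against its label, although reads from the synthetic mRNA and from the cells' own gene cannot be told apart. Summed over 8 skeletal muscle markers (Myog, Ckm, Myh3, Myh8, Acta1, Tnnt3, Mymk and Mymx), CPM ranged from 34.1 to 46.2 in MEFs, where Mymx was at 0, from 1098 to 1624 with +MyoD and from 4934 to 7673 with +MyoD+F/R/C. It was 4251 to 5373 CPM where SP was added and 4521 to 6556 CPM where CP was. The markers did not all move alike. By means, Ckm, Myh3, Myh8, Acta1 and Tnnt3 were lower with SP and with CP than with F/R/C alone. Myog was higher, at 122 CPM with F/R/C alone, 203 CPM with SP and 217 CPM with CP. So were Mymk (120, 147 and 159 CPM) and Mymx (14.1, 15.5 and 15.1 CPM). The sum of 8 fibroblast markers ranged from 1942 to 2776 CPM in MEFs and from 9045 to 31493 CPM in the transfected conditions. Mitochondrially encoded genes took 1.31 to 1.42% of reads in MEFs, 1.43 to 1.80% with +MyoD and 2.52 to 5.06% in the conditions with F/R/C. The part of these differences in the results below was not tested. In such bulk cultures, fewer muscle cells and less RNA per muscle cell cannot be told apart.

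All 9 genes were called higher than in the fibroblasts after MyoD mRNA, and 8 of them rose again when F/R/C was added. Myoz1 in +MyoD line 1, however, held 2 reads, as many as MEF line 2. With +MyoD against MEFs, 9 of the 9 genes were called higher in edgeR (adjusted p at or under 0.05 and an absolute log2 fold change over 0.5), against 22.8% of the 19331 genes tested called higher and 18% called lower. Their median log2 fold change was 6.34, with a range from 2.52 for Ldb3 to 7.32 for Myoz2, against a median of 0.12 over all genes. The estimates of Tcap, Myoz1, Myoz2 and Myot rest on 0 to 7 reads per MEF library, so their order at the top of this range depends on single libraries (without MEF line 3, Myoz2 was at 9.51, Tcap at 10.13 and Myot at 10.24). With +MyoD+F/R/C against MEFs, 9 of 9 were again called higher, against 26.6% of all genes higher and 21.6% lower, with a median of 8.66 beside 0.19 over all genes. With +MyoD+F/R/C against +MyoD, 8 of 9 were called higher, against 10.9% of all genes higher and 8.39% lower. The median of the 9 was 1.95 and that of all genes 0.03. Tcap was the gene not called. The paragraphs below say where groups did not overlap. How many of all genes were apart in this way between these conditions was not counted.

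**Figure D1:**
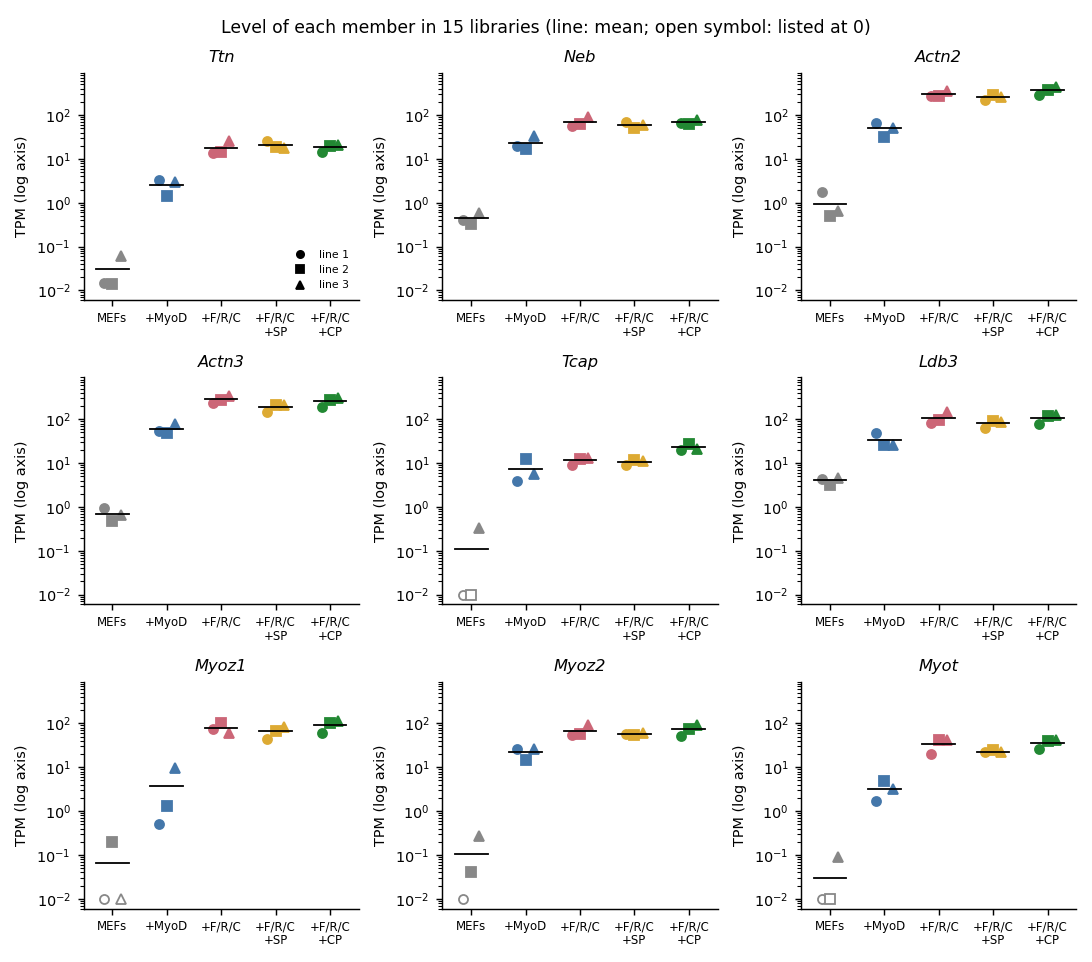
Level of each of the 9 genes in every library, as TPM (reads scaled by transcript length and library total) on a log scale, by condition; symbols are the 3 MEF lines, bars are means and an open symbol stands for a level of 0 TPM. Ttn, Neb, Actn2, Actn3, Ldb3, Myoz1, Myoz2 and Myot step up from MEFs to +MyoD and again to +MyoD+F/R/C without overlap of these groups, while Tcap with +MyoD (3.89 to 12.7 TPM) overlaps Tcap with +MyoD+F/R/C (9.15 to 13.3 TPM). For Myoz1, MEF line 2 and +MyoD line 1 held 2 reads each, so the gap between these groups rests on how few reads were divided. How many of all genes show no overlap of these groups was not counted.

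Ttn lies on the minus strand of chromosome 2 (GRCm38, chr2:76703980-76982547) and encodes a giant protein, the spring of the sarcomere. TPM, which divides reads by transcript length, was 0.0149, 0.0138 and 0.0620 in MEFs of lines 1, 2 and 3, from 25, 28 and 24 reads. It was 3.27, 1.44 and 2.90 with +MyoD and 14.0, 14.4 and 25.6 with +MyoD+F/R/C. The 3 groups did not overlap, and line 3 with F/R/C was the highest of these 9 libraries. By the gene's counts the log2 fold change was 6.71 ± 0.38 (SE, adjusted p = 7.48e-09) for +MyoD against MEFs and 1.95 ± 0.28 (adjusted p = 0.000183) for +MyoD+F/R/C against +MyoD.

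The RefSeq promoter of Ttn is shown because it holds, within 250 bases before the start site, a CAGGTG hexamer (an E-box of the kind bound by myogenic bHLH factors, 138 to 133 bases before the start) and the pattern CTANNNNTAG (recognised by MEF2 factors, 166 to 157 bases before it), both in capitals in the sequence of chr2:76982548-76982797, minus strand, GRCm38.p6:
Ttn promoter: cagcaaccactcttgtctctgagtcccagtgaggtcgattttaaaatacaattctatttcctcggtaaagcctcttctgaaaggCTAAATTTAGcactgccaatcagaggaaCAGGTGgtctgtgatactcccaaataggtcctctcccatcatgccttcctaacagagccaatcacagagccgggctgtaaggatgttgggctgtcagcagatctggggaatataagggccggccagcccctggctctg
Promoters were taken for 4 of the 9 genes, Ttn, Actn2, Ldb3 and Myoz2. Those on the chromosome of Myot were not looked up for the members, while the percentages that follow are over the whole set. Searched on both strands, CANNTG was present in 72.31% of 32851 promoters of 300 bases, CAGCTG in 16.3%, CAGGTG in 20.21% and CTANNNNTAG in 3.686%, and CANNTG includes both hexamers. These matches are descriptions of the letters only.

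Ttn reads were spread over several of the 25 annotated transcripts. The transcript Ttn-201 took 52.9, 48.3 and 45.9% of the gene's TPM with +MyoD and 27.3, 24.6 and 22.7% with +MyoD+F/R/C. The retained-intron transcript Ttn-207, of 3513 bases, took 4.88, 0 and 5.72% with +MyoD and 33.7, 23.4 and 34.9% with +MyoD+F/R/C, from 9.87, 0 and 11.1 estimated reads against 356, 270 and 757. TPM weighs each read of a short transcript more than one of a long transcript, so the gene's TPM and its counts need not move alike. Reads shared between transcripts were divided by kallisto's estimate, and these shares were not tested.

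Neb (chr2:52136647-52378474, minus strand) encodes the thin filament protein whose repeats bind actin along its length. Its level was 0.404, 0.326 and 0.588 TPM in MEFs, 19.4, 17.1 and 33.5 TPM with +MyoD and 54.9, 61.3 and 90.6 TPM with +MyoD+F/R/C. Line 3 was highest in each of the 3 conditions, and the conditions did not overlap. Much of this TPM lay in Neb-208, a processed transcript of 1599 bases without coding sequence. It took 41.9, 43.4 and 41.0% of the gene's TPM with +MyoD and 27.0, 35.9 and 29.8% with +MyoD+F/R/C. These shares, too, rest on kallisto's division of reads and were not tested. The log2 fold change of Neb was 5.62 ± 0.33 (SE, adjusted p = 9.91e-09) for +MyoD against MEFs and 1.78 ± 0.26 (adjusted p = 0.000187) for the addition of F/R/C. Neb shares 45 exonic bases with Gm13522 and Ttn 110 with Gm13938, each on the opposite strand, and whether the counting used strand is not given in the sources used here.

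Tcap (chr11:98383811-98384953, plus strand) encodes telethonin in 2 exons. Telethonin ties the N-termini of a pair of titin molecules together at the Z-disc. MEFs of lines 1 and 2 held no Tcap read and line 3 held 6. With +MyoD the level was 3.89, 12.7 and 5.67 TPM, from 58, 230 and 92 reads, and with +MyoD+F/R/C it was 9.15, 12.4 and 13.3 TPM. Line 2 was the highest of the +MyoD libraries and exceeded its own F/R/C library, so that Tcap was higher with F/R/C in 2 of 3 lines and the groups overlapped. The log2 fold change of Tcap for the addition of F/R/C was 0.53 ± 0.53 (SE), with a 95% interval from -0.59 to 1.65 and an adjusted p of 0.550. It was 1.25 (adjusted p = 0.117) without +MyoD line 2, 0.20 without line 1 and 0.34 without line 3, and Tcap was called in none of these fits. Against MEFs, Tcap rose by 5.95 ± 0.76 on the log2 scale with +MyoD (adjusted p = 1.35e-05). This estimate rests on the 6 reads of MEF line 3, and it was 10.13 without that library. Likewise, 6.48 for +MyoD+F/R/C against MEFs became 10.66.

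The α-actinins cross-link antiparallel thin filaments at the Z-disc. Actn2 (chr13:12269426-12340760, minus strand) encodes the form of all striated muscle and Actn3 (chr19:4861216-4877909, minus strand) the form of fast muscle fibers. Actn2 read as 1.72, 0.507 and 0.647 TPM in MEFs, 67.6, 32.1 and 50.0 TPM with +MyoD and 272, 278 and 361 TPM with +MyoD+F/R/C. Actn3 read as 0.971, 0.475 and 0.663 TPM in MEFs, 55.1, 48.7 and 76.1 TPM with +MyoD and 241, 279 and 342 TPM with +MyoD+F/R/C. For both genes every +MyoD+F/R/C library lay above every +MyoD library, and these in turn above every MEF library. The addition of F/R/C raised Actn2 by 2.57 ± 0.22 on the log2 scale (SE, adjusted p = 2.52e-06) and Actn3 by 2.18 ± 0.22 (adjusted p = 1.01e-05). Actn2 and Actn3 were the top pair of the 9 genes by mean TPM in each of the 4 transfected conditions. Actn3 was first in +MyoD (60.0 ± 14.3 against 49.9 ± 17.8 TPM for Actn2, mean ± SD, n = 3) and Actn2 in the other 3. The ranges of the pair overlapped with +MyoD, with +MyoD+F/R/C and where CP was added, but not where SP was. Because the genes are close relatives, kallisto had to divide any reads they share.

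The share of the muscle forms among α-actinin transcripts was higher in every transfected library than in MEFs. Actn1 and Actn4 encode the α-actinins of focal adhesions and stress fibers. Actn2 and Actn3 together made up 0.108, 0.0384 and 0.0559% of the TPM of the 4 α-actinin genes in MEFs, 6.03, 4.62 and 8.79% with +MyoD and 49.3, 53.1 and 46.1% with +MyoD+F/R/C. The share was 38.2, 42.5 and 34.8% with SP and 46.3, 48.8 and 50.4% with CP. Each transfected group with F/R/C lay above every +MyoD library, and the SP libraries lay below every library with F/R/C alone. This share, a sum over members and relatives, was not tested. The TPM of the 4 genes together was 2343 to 2554 in MEFs, 1434 to 2035 with +MyoD and 1041 to 1526 with +MyoD+F/R/C, and Actn1 fell by 1.52 and Actn4 fell by 1.43 on the log2 scale with the addition of F/R/C (adjusted p = 0.000191 and 2.41e-05).

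**Figure D2:**
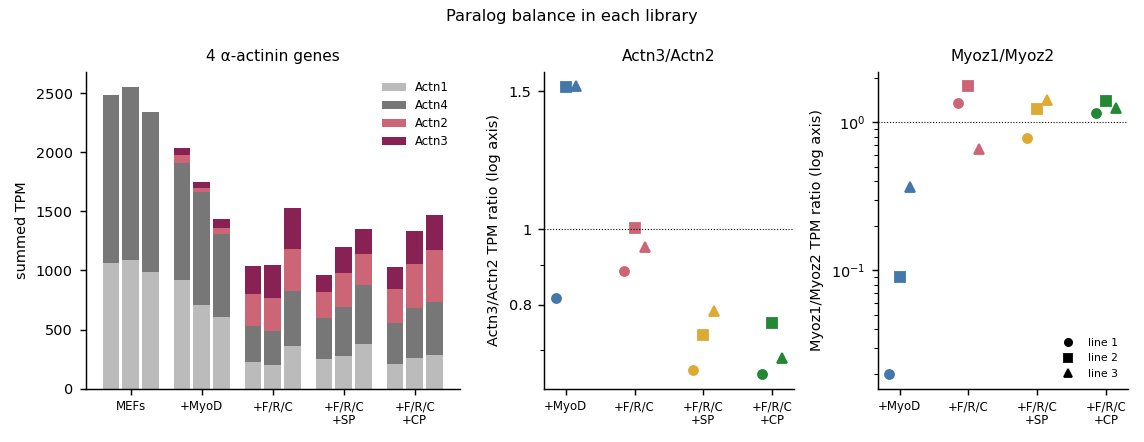
Balance of the paralogous genes in each library by condition. Left, stacked bars of the summed TPM of the 4 α-actinin genes, 1 bar per MEF line in the order 1 to 3; middle and right, the TPM ratios of Actn3 to Actn2 and of Myoz1 to Myoz2 on log axes, with a symbol per line and a dotted line at 1. The colored part of the bars, Actn2 and Actn3, goes from 0.0384 to 0.108% in MEFs to 46.1 to 53.1% with +MyoD+F/R/C, and the Myoz1 to Myoz2 ratio from 0.0199 to 0.365 with +MyoD to 0.661 to 1.75 with +MyoD+F/R/C.

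Within the muscle pair, the Actn3 to Actn2 ratio in TPM was 0.815, 1.52 and 1.52 with +MyoD and 0.883, 1.0 and 0.948 with +MyoD+F/R/C. Under SP it was 0.660, 0.732 and 0.786, and under CP 0.652, 0.758 and 0.684. The ratio was lower with SP and with CP than with F/R/C alone in 3 of 3 lines, without overlap. The log2 differences were -0.38 for SP and -0.44 for CP. An exact two-sided permutation test gave p = 0.1 for each, the smallest that 3 libraries against 3 allow, and 0.18 after Benjamini-Hochberg adjustment over the 9 ratio tests, so these differences could not reach the threshold. With +MyoD+F/R/C against +MyoD the same exact test gave p = 0.4.

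Myoz1 and Myoz2 encode calsarcins that link α-actinin to calcineurin, Myoz1 being the form of fast fibers and Myoz2 that of slow fibers and heart. Myoz1 (chr14:20649107-20656540, minus strand) was the member that moved most with F/R/C. It held 0, 2 and 0 reads in MEFs and 2, 33 and 122 reads with +MyoD, or 0.513, 1.33 and 9.39 TPM. With +MyoD+F/R/C it stood at 74.6, 102 and 61.2 TPM. In fold, the +MyoD libraries differed from each other more for Myoz1 than the F/R/C libraries did, and none reached the lowest library with F/R/C. The log2 fold change for the addition of F/R/C was 4.77 ± 0.66 (SE, adjusted p = 0.000125), and it ranged from 4.21 to 6.34 when each library was left out in turn, the highest without +MyoD line 3. Pooled over lines, 157 reads with +MyoD against 2 in MEFs gave an 82.8-fold ratio with a 95% exact counting interval from 22.5 to 690, and 5262 reads with +MyoD+F/R/C gave 2225-fold (616 to 18381). The intervals cover counting error only, and 122 of the 157 reads came from +MyoD line 3. The fitted log2 fold change of Myoz1 for +MyoD against MEFs was 6.12 ± 1.27 (SE, adjusted p = 0.000971), and it ranged from 4.55 without +MyoD line 3 to 8.86 without MEF line 2.

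Myoz2 (chr3:123006206-123035015, minus strand) held 0, 1 and 7 reads in MEFs. Its level was 25.8, 14.6 and 25.8 TPM with +MyoD and 54.8, 58.3 and 92.6 TPM with +MyoD+F/R/C, without overlap between the groups. It rose by 7.32 ± 0.49 on the log2 scale from MEFs to +MyoD (SE, adjusted p = 3.14e-08), or by 9.51 without MEF line 3. With the addition of F/R/C it rose by 1.59 ± 0.30 (adjusted p = 0.00146). Its promoter is shown for the same reason as that of Ttn, with a CTANNNNTAG match (33 to 24 bases before the start) and a CAGCTG hexamer (12 to 7 bases before it) in capitals, chr3:123034988-123035237, minus strand, GRCm38.p6:
Myoz2 promoter: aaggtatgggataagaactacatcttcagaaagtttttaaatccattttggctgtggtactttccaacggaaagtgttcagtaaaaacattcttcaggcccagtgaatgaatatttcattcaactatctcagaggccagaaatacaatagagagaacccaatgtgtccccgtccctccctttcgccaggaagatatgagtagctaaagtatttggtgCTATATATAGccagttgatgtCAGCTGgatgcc
The 300-base promoter windows of Actn2 held CANNTG but neither hexamer nor CTANNNNTAG, and those of Ldb3 held CTANNNNTAG but no CANNTG.

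The Myoz1 to Myoz2 ratio in TPM was 0.0199, 0.0908 and 0.365 with +MyoD and 1.36, 1.75 and 0.661 with +MyoD+F/R/C, a 13.4-fold difference of geometric means. The fold was 6.40 without +MyoD line 1, whose Myoz1 level rests on 2 reads, 27.4 without +MyoD line 3 and 23.1 in reads per kb of transcript. The ratio was higher in 3 of 3 lines, and the exact two-sided permutation test gave p = 0.1 (0.18 adjusted over 9 ratio tests), again the smallest possible. Against F/R/C alone, the ratio gave p = 0.9 in the exact test with SP as with CP.

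Myot (chr18:44334074-44355724, plus strand) encodes myotilin, which bundles actin and binds filamin and α-actinin. It held 0, 0 and 4 reads in MEFs, read as 1.69, 4.87 and 3.28 TPM with +MyoD and as 20.5, 42.7 and 41.1 TPM with +MyoD+F/R/C. Line 1 was the lowest line in both transfected groups, and the groups did not overlap. The addition of F/R/C raised Myot by 3.30 ± 0.42 on the log2 scale (SE, adjusted p = 5.46e-05), the second largest change of the 9 after Myoz1. Against MEFs the log2 fold change with +MyoD was 6.61 ± 0.71 (adjusted p = 2.24e-06), resting on the 4 reads of MEF line 3, and it was 10.24 without that library.

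**Figure D3:**
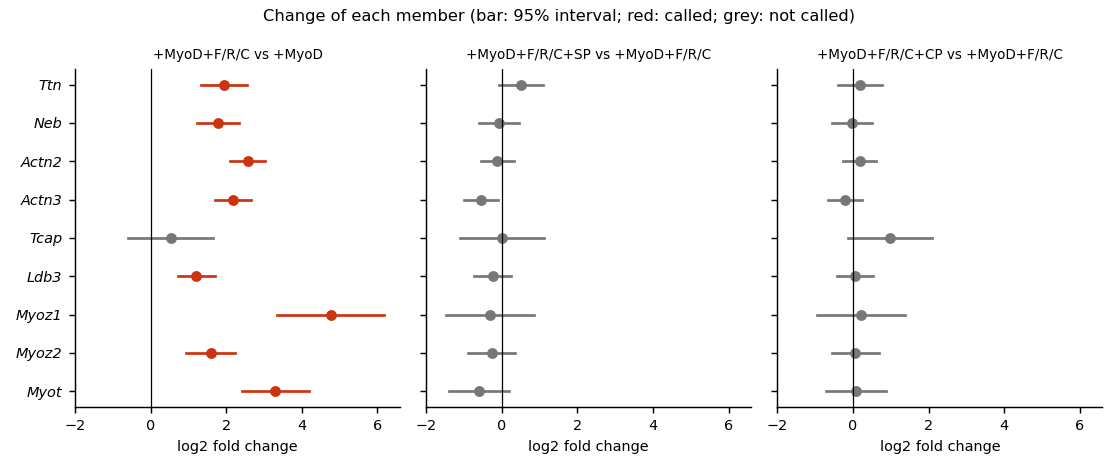
Log2 fold change of each of the 9 genes in 3 comparisons, from edgeR with 95% intervals, in red where called and in grey where not, with a vertical line at no change. In +MyoD+F/R/C against +MyoD the estimates run from 0.53 for Tcap, whose interval crosses 0, to 4.77 for Myoz1, and with SP or CP against F/R/C alone only the interval of Actn3 with SP (-1.0 to -0.10) leaves out 0.

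Ldb3 (chr14:34526603-34588682, minus strand) encodes ZASP, also called Cypher, a PDZ and LIM domain protein that binds α-actinin. It was the only member with more than 100 reads in every MEF library, at 4.37, 3.17 and 4.55 TPM. It read as 49.1, 26.1 and 26.4 TPM with +MyoD and 80.6, 94.1 and 145 TPM with +MyoD+F/R/C, again without overlap. Its log2 fold changes, 2.52 ± 0.24 for +MyoD against MEFs (SE, adjusted p = 8.38e-07) and 1.21 ± 0.23 for the addition of F/R/C (adjusted p = 0.00139), were the smallest of the members called.

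Ldb3 is known to be spliced into long forms, which carry LIM domains at the C-terminus, and short forms, which end before them and keep the PDZ domain. Transcripts that end before the exons of the LIM domains took 1.92, 0 and 8.6% of the TPM of Ldb3 coding transcripts in MEFs, 43.7, 24.7 and 48.2% with +MyoD and 64.6, 56.3 and 65.5% with +MyoD+F/R/C. The share was 57.3, 64.8 and 57.7% under SP and 60.2, 63.2 and 66.3% under CP. Every library with F/R/C lay above every +MyoD library, and these above every MEF library. The MEF shares rest on 318 to 424 reads per library, of which the short form held an estimated 2.84, 0 and 12.3 in lines 1, 2 and 3. As a share of estimated counts, which are not divided by length, the short form averaged 19.2% with +MyoD and 36.6% with +MyoD+F/R/C. This grouping was chosen after the values were seen and is a description with no test, since kallisto divides the reads that the forms share.

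A few transcripts carried most of the Ldb3 signal. Ldb3-203, a short form, took 43.7, 24.7 and 28.2% of the TPM with +MyoD and 5.61, 6.18 and 7.81% with +MyoD+F/R/C. Ldb3-207, also a short form, took 0, 0 and 20.1% with +MyoD and 59.0, 50.1 and 57.7% with +MyoD+F/R/C. The short form thus rested mainly on a different transcript in the 2 conditions. Ldb3-205, a long form, was a major transcript in both, at 39.4, 44.6 and 37.5% and then 27.5, 24.1 and 25.3%. A list of 6 cardiac muscle markers, a tissue that also uses Ldb3, summed to 6.26 to 8.51 CPM with +MyoD, where Nkx2-5 was at 0 and Gata4 gave 4.74 to 7.09 CPM. After F/R/C was added the sum was 7.78 to 14.1 CPM and the mean of Myh6, a cardiac myosin heavy chain, was 2.03 CPM, beside 0.158 CPM with +MyoD. The sum was 4.33 to 6.29 CPM under SP and 7.35 to 8.82 CPM under CP. The part of such cells in the Ldb3 shares was not tested.

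**Figure D4:**
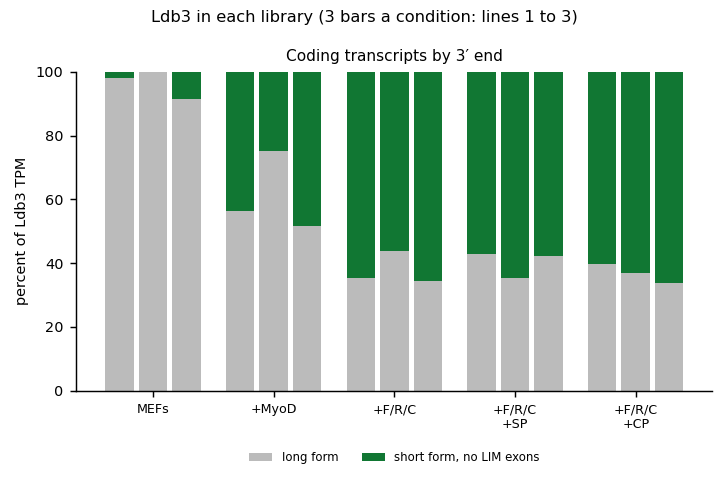
Percent of Ldb3 TPM in long and short coding transcripts in each library, as stacked bars by condition with 1 bar per MEF line in the order 1 to 3. The short form, which ends before the exons of the LIM domains, is 24.7 to 48.2% with +MyoD and at least 56.3% in each of the 9 libraries with F/R/C.

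Adding SP to F/R/C changed none of the 9 genes by the edgeR test, which called 0 members and 0% of all 19331 genes. At an unadjusted p under 0.05 there was 1 member, and DESeq2, which called 0.367% of the genes it adjusted, also called 0 members, with 1 at an unadjusted p under 0.05. How many of all genes lay under that p was not counted, here or in the comparisons below. The member below 0.05 in edgeR was Actn3, at 146, 215 and 207 TPM with SP against 241, 279 and 342 TPM without. Every SP library lay below every library with F/R/C alone, but how many of all genes were apart in this way was not counted. The log2 fold change of Actn3 was -0.55 ± 0.21 (SE), with a 95% interval from -1.0 to -0.10 and an adjusted p of 0.722. Ttn stood at 25.3, 18.7 and 17.9 TPM with SP, within the TPM range without it. In CPM it was 602, 347 and 314 with SP and 268, 248 and 373 without, so SP line 1 lay above that range. The log2 fold change of Ttn in edgeR, which is fitted to counts, was 0.51 (adjusted p = 0.761), or 0.15 without SP line 1. The other 7 members had log2 fold changes between -0.61, for Myot, and 0.00, for Tcap.

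Adding CP instead called 0 of the 9 members in edgeR, against 0.0362% of all genes, and none had an unadjusted p under 0.05. DESeq2 called 1.15% of the genes it adjusted and 0 members, with 1 at an unadjusted p under 0.05. Tcap had the largest estimate of the 9, at 20.4, 27.1 and 20.6 TPM with CP against 9.15, 12.4 and 13.3 TPM with F/R/C alone. Every CP library exceeded every library without CP, in 3 of 3 lines, but how many of all genes were apart in this way was not counted. Its log2 fold change was 0.97 ± 0.52 (SE), with a 95% interval from -0.14 to 2.09, and the adjusted p was 0.687, or 0.0782 when only the 9 libraries with F/R/C were fitted and 0.131 with only the 6 libraries compared. The estimates of the other 8 lay between -0.21 and 0.20. These intervals leave room for changes in either direction, and a p above the threshold does not show that the levels were the same.

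Between CP and SP, JAK and JNK inhibitors added to the same cocktail, edgeR called 0 of the 9 members against 0.197% of all genes, with no member at an unadjusted p under 0.05 and 0 members called by DESeq2, which had 1 at that p and called 0.446% of the genes it adjusted. Tcap was 8.94, 11.6 and 11.0 TPM with SP, below every CP library, with a log2 difference of 0.97. Myot was 21.8, 25.1 and 21.9 TPM with SP and 25.8, 39.8 and 41.4 TPM with CP, again without overlap, with a log2 difference of 0.68. The share of all genes without such overlap was not counted. The adjusted p was 1 for each member.

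In all, 3 lists of related genes, chosen with earlier results of these data known, were counted in the same fit. Of 24 further Z-disc proteins, 13 were called higher and 3 lower with +MyoD against MEFs (median log2 fold change 0.94), beside 22.8% and 18% of all genes, and 15 and 5 with +MyoD+F/R/C against MEFs (median 2.80), beside 26.6% and 21.6%. With the addition of F/R/C, 12 were called higher and 4 lower, beside 10.9% and 8.39% of all genes (median 0.91, beside 0.03 over all genes). The strongest by p were Synpo2, the actin-bundling myopodin (log2 fold change 2.33), Nrap, an anchoring protein of nascent myofibrils (2.84), Pdlim3, a PDZ-LIM partner of α-actinin (2.15), and Xirp2, an actin-binding Xin repeat protein (3.16). Against the list's majority, Pdlim5 (-1.46), Pdlim7 (-0.71), the LIM-only protein gene Fhl1 (-1.29) and the adaptor gene Sorbs2 (-0.91) fell, Pdlim5 and Pdlim7 being PDZ-LIM relatives of Ldb3. Against MEFs, Pdlim3 (6.20), Nrap (6.64), the titin- and nebulin-binding myopalladin gene Mypn (6.66) and the desmin gene Des (4.16) were the strongest by p with +MyoD. They did not have the largest estimates. Csrp3 was at 7.45, and Xirp1 was at least 489-fold higher, taking 3 reads over the MEF group as the floor. The filamin gene Flnc (-0.66), the thin filament capping gene Capza2 (-0.63) and Pdlim7 (-0.61) fell in that comparison.

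Of 15 genes whose products bind titin, nebulin or the thin filament they span, 12 were called higher and 1 lower with +MyoD against MEFs (median 6.73), beside 22.8% and 18% of all genes, and 13 and 1 with +MyoD+F/R/C against MEFs (median 7.63), beside 26.6% and 21.6%. Ankrd1, a stretch-responsive titin-binding protein gene, was the one called lower in both, by -1.18 and -1.27. With the addition of F/R/C, 12 of the 15 were called higher and 0 lower in edgeR (median 1.98), beside 10.9% and 8.39%. Among them were Klhl41, whose product stabilises nebulin (2.24), Tmod1, which caps the pointed end of the thin filament (2.82), Ankrd2, a titin-binding ankyrin repeat protein (4.06), and Trim55, a ubiquitin ligase at the titin kinase region (2.26). The leiomodin genes Lmod2 and Lmod3, nucleators of thin filaments, had no read in MEFs and were at least 340-fold and 350-fold higher with +MyoD, taking 3 reads over the MEF group as the floor.

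Of 6 relatives expressed outside muscle, Actn1, Actn4, Lasp1, Csrp1, Csrp2 and Pdlim1, 4 were called lower and 0 higher with +MyoD against MEFs (median -0.73), with +MyoD+F/R/C against MEFs (median -2.17) and with the addition of F/R/C (median -1.27). Of all genes, 18%, 21.6% and 8.39% were called lower in these comparisons. The same 4 genes, Actn1, Actn4, the nebulin-family adhesion gene Lasp1 and the PDZ-LIM gene Pdlim1, were those called each time. In the last comparison Lasp1 fell by 1.11 and Pdlim1 fell by 1.44 on the log2 scale. A sum of 5 smooth muscle markers was 4966 to 6369 CPM in MEFs (mean 5440, beside a mean of 5443 with +MyoD). It went from 3158 to 7519 CPM with +MyoD to 1059 to 2550 CPM with +MyoD+F/R/C. By means, Acta2 went from 3172 to 939 CPM and Tagln from 1726 to 350 CPM, and Cnn1 and Smtn fell too. Myh11 went the other way, from 166 to 194 CPM, with overlapping ranges. The part of smooth muscle cells in the falls of the 4 relatives was not tested.

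With SP or CP against F/R/C alone, and with CP against SP, edgeR called 0 genes of each of the 3 lists, as did DESeq2. At an unadjusted p under 0.05, edgeR and DESeq2 each had 2, 3 and 2 genes of the Z-disc, titin and nebulin, and non-muscle lists with SP, 0, 1 and 1 with CP, and 0 of each for CP against SP. In edgeR these were Csrp3, Pdlim5, Ankrd2, Ankrd23, Trim54, Actn4 and Csrp1 with SP, and Ankrd23 and Csrp1 with CP, named after their values were seen, with log2 fold changes between -0.89 (Csrp3) and 0.53 (Pdlim5). The share of all genes under that p was not counted, so these counts have no background beside them. The medians of the Z-disc list were -0.06, 0.06 and 0.11 in these 3 comparisons, those of the titin and nebulin list -0.27, -0.13 and 0.18, and those of the non-muscle list 0.22, 0.23 and 0.04.

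Over the 12 transfected libraries, each member had other genes whose log2 CPM ran closely with it, taken as the highest Pearson r among 14310 genes with a mean of at least 1 CPM. Actn3 ran with the fast troponin gene Tnni2 (r = 0.998), Myoz1 with Casq1, the calcium buffer of the fast sarcoplasmic reticulum (0.994), Neb with the triad gene Trdn (0.982) and Myoz2 with the amino acid transporter gene Slc38a6 (0.992). Actn2 was nearest to Cacng6, a muscle calcium channel subunit (0.994), Myot to Ache, the acetylcholinesterase of the neuromuscular junction (0.978), Ttn to Dclk1 (0.990) and Ldb3 to AU018091 (0.980). Tcap was nearest to the matrix gene Postn, at a lower r of 0.934. The coefficients of Tcap with the other 8 members ran from 0.442 to 0.785, and those of the 8 among themselves from 0.690 to 0.977, so the ranges overlapped. The 12 points share 3 lines and a step between +MyoD and the conditions with F/R/C, so these coefficients are descriptions.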

How the data were processed

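Bulk RNA-seq was made from 15 TruSeq stranded poly-A libraries read single-end. According to the submitters' processing notes and the study's methods, the authors used bcl2fastq 2.20, fastp 0.20.0 and kallisto 0.46.1 against GRCm38.p6 and tested with DESeq2. The deposited tables give an estimated count (expected count, not whole) and a TPM for each of 121843 transcripts per library, as the authors made them. Transcripts were joined to GENCODE M21 genes by identifier (121104 matched, and the 739 others held 0.236 to 0.327% of counts). Each gene took the sum of its transcripts, with estimated counts then rounded to whole numbers.

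Genes passing filterByExpr (minimum count 10, minimum total 15) entered 1 edgeR 4.0.16 quasi-likelihood fit (R 4.3.3) of all 15 libraries with TMM and condition as the term, with Benjamini-Hochberg adjustment over 19331 genes. Genes were called at an adjusted p of 0.05 or less and an absolute log2 fold change over 0.5. The common biological coefficient of variation was 0.350. Library numbers name the MEF line, so they pair libraries across conditions: deviations of same-line pairs correlated at 0.0737 on average (30 pairs, -0.0038 to 0.237) against -0.0368 for other pairs (60), and 15 of 15 libraries lay nearest to their own line. The deviations were taken from the mean of each condition, which ties the value for other pairs to that for same-line pairs. It is therefore no separate evidence of pairing. Ratios of TPM were compared by exact two-sided permutation tests. Named beyond the 9 members were up to 4 called genes of smallest p in each related list and comparison, genes called against the list's majority, and, from the 3 genes of highest r for each member, a few. The scripts' tests were checked on simulated counts. The members and lists were chosen with earlier results of these data known. Alternatives were RLE scaling, DESeq2 1.42.0, at least 1 count as the only filter, the MEF line as a block, fits of only the libraries compared, counts scaled from TPM and length, and leaving out each library. Replicates differed by more than counting noise (chi-square per degree of freedom at least 17.9).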

Additional observations from a re-analysis of the deposited data

How the results depend on the processing

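The counts of members called, and of genes called in the 3 related lists, stayed within 1.5 times under every alternative. With +MyoD against MEFs 8 members were called in place of 9 when only these 6 libraries were fitted, since Myoz1 did not pass the count filter there. Every log2 fold change of a member against MEFs, and for F/R/C against +MyoD, kept its direction and its call (107, 108 and 117 values). With the MEF line as a replicate block no member's call changed: Myoz1 was at 5.02 for the addition of F/R/C, Actn3 at -0.53 (adjusted p = 0.400) with SP and Tcap at 0.99 (adjusted p = 0.554) with CP.

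Direction turned only among estimates that were not called, between -0.32 (Ttn for CP against SP) and 0.07, 13 of 117 values for SP, 11 of 117 for CP and 4 of 117 for CP against SP. For Tcap with SP the log2 fold change was -0.0034 with RLE or DESeq2, -0.0051 with all genes counted once, -0.10 with length-scaled counts, -0.0088 with 6 libraries and -0.0099 with 9. For Neb with CP it was 0.046 with length-scaled counts. Leaving out each library gave, for SP, ranges of -0.35 to 0.10 for Neb, -0.23 to 0.026 for Actn2 and -0.14 to 0.086 for Tcap. For CP these were -0.20 to 0.15 for Neb, -0.10 to 0.29 for Ldb3, -0.15 to 0.30 for Myoz2 and -0.19 to 0.28 for Myot, and for CP against SP -0.49 to 0.032 for Ttn and -0.12 to 0.32 for Neb. The cause was not tested.

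The Ttn to Neb ratio depended on the measure of length. With F/R/C against +MyoD its log2 difference was 1.26 in TPM and 0.21 in reads per kb of the longest coding transcript, and with SP against F/R/C it was 0.41 and 0.56. The order of members by level moved in 23 of 36 cases with reads per kb. By estimated counts, an alternative chosen after seeing the data, the short form of Ldb3 took 19.2% with +MyoD and 36.6% after F/R/C was added (34.1% under SP, 36.8% under CP), all below the shares of TPM. Depth limits the values of Tcap, Myoz1, Myoz2 and Myot in MEFs, which rest on 0 to 7 reads per library.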

Other observations

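The fiber-type genes that accompany the α-actinin and myozenin paralogs were summed as a description. Of 6 fast-fiber genes (Myh1, Myh2, Myh4, Tnnt3, Tnni2 and Atp2a1), the sum was 0.425 to 0.751 CPM in MEFs, where Myh2 and Myh4 were at 0, 169 to 453 CPM with +MyoD and 880 to 1390 CPM with +MyoD+F/R/C. SP libraries held 795 to 917 CPM and CP libraries 857 to 1214 CPM. The sum of 5 slow-fiber genes (Myh7, Tnnt1, Tnni1, Tnnc1 and Atp2a2) was 666 to 702 CPM in MEFs, nearly all of it Atp2a2 at 661 to 698 CPM, a calcium pump gene also used outside muscle. It was 611 to 782 CPM with +MyoD and 1272 to 1789 CPM with +MyoD+F/R/C. Transcripts of both fiber types were thus present in every transfected library, and these sums were not tested.

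Markers of macrophages (Ptprc, Cd68, Adgre1 and Csf1r) summed to 5.08 to 15.8 CPM and those of endothelium (Pecam1, Cdh5 and Kdr) to 1.75 to 11.2 CPM over all 15 libraries.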
